A study of Mus musculus with 6 samples.

Results

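The Cyp4 cytochrome P450 enzymes of mouse liver were described here through 8 genes, Cyp4a10, Cyp4a14, Cyp4a31, Cyp4a12a, Cyp4a12b, Cyp4f14, Cyp4f15 and Cyp4v3, out of 14803 genes tested. A probe belonged to a member when the RefSeq accession printed for it in the array design carried that symbol. This gave 12 probes: 3 each for Cyp4a10 and Cyp4a31 and 1 for each of the other 6 members. All 12 were well above background on all 6 arrays, so every member passed the filter on dim probes. Liver RNA came from male ICR mice, an outbred stock, that weighed 18 to 22 g. Control mice received saline and treated mice received DECB, the deproteinized extract of calf blood, each into the stomach once a day for 35 days at 0.08 mL per 20 g of body weight. Arrays of 3 samples per group were analysed, control 1, 2 and 3 and DECB 4, 5 and 6, from a study of 24 mice. The sample descriptions name day 1 for the controls and day 30 for DECB, which conflicts with 35 days; ages are not given, and the labels do not say whether livers were taken before or after the mice were timed in closed containers. Whether the arrays came from separate mice is not said, so the p-values capture the spread among these samples alone, and that spread may be technical.

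Cyp4 enzymes sit in the endoplasmic reticulum membrane and add a hydroxyl group to the far (omega) end of fatty acids and eicosanoids. Alcohol and aldehyde dehydrogenases then turn the product into a dicarboxylic acid, which peroxisomes shorten. In rodent liver the Cyp4a10 and Cyp4a14 genes are classical targets of PPAR-alpha, the fatty acid receptor of the fasted state, while Cyp4a12 genes are known for high expression in males. The Cyp4f enzymes act on leukotrienes and other long or branched chains, and Cyp4v3 is the mouse counterpart of human CYP4V2, a fatty acid hydroxylase whose loss causes a retinal dystrophy.

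Promoters were shown for 3 genes because they pair the sequence with different values: Cyp4f15, lower on every DECB array, its neighbour Cyp4f14, whose groups overlapped, and Cyp4a32, the Cyp4 gene that passed the test. Each window runs from 250 bases before to 50 bases after the annotated start (RefSeq, GRCm38.p6, 300 bases, written in the direction of transcription). The table of promoters held 3 of the 8 members, Cyp4f14, Cyp4f15 and Cyp4v3. Capitals mark ATTGG, the reverse complement of the CCAAT box.
Cyp4f15, chr17:32685409-32685708, plus strand: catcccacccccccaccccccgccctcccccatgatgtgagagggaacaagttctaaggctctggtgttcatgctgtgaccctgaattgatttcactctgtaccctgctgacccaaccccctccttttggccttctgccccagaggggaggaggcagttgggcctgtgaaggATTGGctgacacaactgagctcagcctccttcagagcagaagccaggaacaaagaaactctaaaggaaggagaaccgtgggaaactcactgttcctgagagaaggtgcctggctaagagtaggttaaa
Cyp4f14, first of its listed starts, chr17:32917307-32917606, minus strand: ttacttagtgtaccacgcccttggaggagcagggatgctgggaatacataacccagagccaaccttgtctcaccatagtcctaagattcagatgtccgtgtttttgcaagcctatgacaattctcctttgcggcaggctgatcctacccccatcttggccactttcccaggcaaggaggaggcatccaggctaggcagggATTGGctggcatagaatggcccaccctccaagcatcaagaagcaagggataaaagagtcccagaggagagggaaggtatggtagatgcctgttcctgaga
Cyp4a32, chr4:115600688-115600987, plus strand: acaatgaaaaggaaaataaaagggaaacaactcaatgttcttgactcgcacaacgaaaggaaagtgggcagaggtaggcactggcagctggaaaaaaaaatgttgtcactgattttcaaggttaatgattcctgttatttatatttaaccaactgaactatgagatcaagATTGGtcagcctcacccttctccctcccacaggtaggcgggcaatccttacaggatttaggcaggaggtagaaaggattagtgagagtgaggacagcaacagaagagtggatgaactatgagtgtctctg

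ATTGG, searched on both strands, lay 78 bases before the start in Cyp4f15, 50 in Cyp4f14 and 80 in Cyp4a32. It was found in 7 of the 13 Cyp4 promoters in the table, 6 of them Cyp4f genes, and in 37.4% of 32817 promoters of the same length. The nuclear receptor half-site AGGTCA, again on both strands, was found in 1 of the 13, Cyp4a29, against 16.3% of all promoters. Its direct repeat with 1 base between (AGGTCA, any base, AGGTCA) and a looser form that includes it (AGGNCA, any base, AGGNCA) were in none of the 13, against 0.0396% and 0.381% of all promoters. Neither form of the repeat is in these windows, and both forms are rare over all promoters. Cyp4a10 and Cyp4a14 had no window in the set, and sites farther away were not searched.

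Arrays differed in brightness by slide, taken as the arrays of 1 scan: slide 1 held control 1 and DECB 6, slide 2 controls 2 and 3 and DECB 4, and slide 3 DECB 5. The 75th percentile of the signal was 78.8 and 84.8 on slide 1 and 422 to 551 on the other arrays, which is 3.75 to 4.04 and 25 to 30.6 times the local background. Each level below is a log2 signal minus that of its own array's 75th percentile, and each difference is DECB minus control on this log2 scale. limma (Benjamini-Hochberg adjusted p under 0.05 over all genes) called 69 genes, 31 higher and 38 lower in DECB. It called 2 without control 2 and 0 without control 1, control 3, DECB 4 or DECB 5, where 1343, 917, 1220 and 1159 genes had an unadjusted p under 0.05.

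Cyp4a10, Cyp4a14, Cyp4a31 and Cyp4f15 were lower on all 3 DECB arrays than on all 3 control arrays, by 2.97-fold to 5.98-fold. Cyp4a12a, Cyp4a12b, Cyp4f14 and Cyp4v3 overlapped between the groups, with fitted differences from -0.13 to 0.80. That complete separation downward held for 4 of 8 members and for 9.4% of all genes; the reverse held for none of the members and for 7.24% of all genes. None of the 8 passed limma over all genes, in which 0.466% passed; 4 had an unadjusted p under 0.05, all lower, against 5.79% of all genes that were lower at that level. With slide as a block, 4 of 8 passed, all lower, in a fit that called 6.67% of all genes, with 3.94% called lower. DECB 5, alone on its slide, adds nothing to the contrast there, and few residual degrees of freedom remain. The median difference was -0.85 over the members and -0.03 over all genes.

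**Figure D1:**
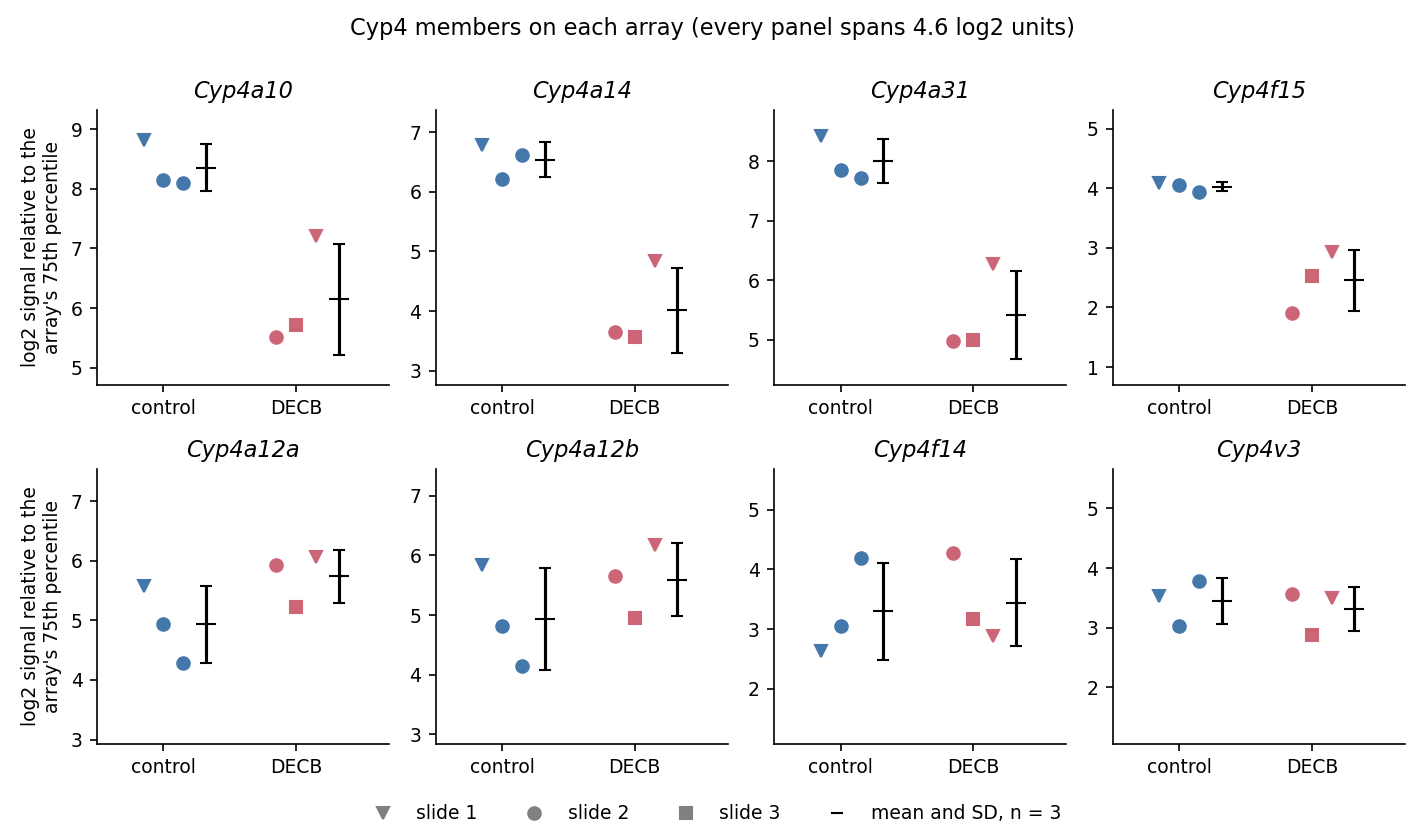
Log2 signal of each Cyp4 member relative to the array's 75th percentile (vertical axis, the same span in every panel) in control (blue) and DECB (red) samples; the marker shape gives the slide, and the bar beside each group the mean and SD of 3 arrays. In the upper row (Cyp4a10, Cyp4a14, Cyp4a31, Cyp4f15) every DECB point lies below every control point, and in the lower row the groups overlap.

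Cyp4a10 hydroxylates lauric and other saturated fatty acids. Its brightest probe read 8.82, 8.15 and 8.10 on controls 1, 2 and 3 and 5.51, 5.71 and 7.21 on DECB 4, 5 and 6. All DECB values lay below all control values, and DECB 6, on the dim slide, lay closest to the controls. The means were 8.36 ± 0.40 and 6.14 ± 0.93 (SD, n = 3), a difference of -2.21 (SE 0.50; limma adjusted p = 0.144, and 0.0291 blocked by slide). The other probes differed by -2.35 (SE 0.41) and -1.66 (SE 0.33) in a limma fit over all kept probes, so the 3 probes had the same direction and their 95% intervals overlapped.

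Cyp4a14 is a closely related omega-hydroxylase. It read 6.79, 6.22 and 6.61 on the controls and 3.64, 3.56 and 4.83 on the DECB arrays. The groups did not overlap, and DECB 6 was again the highest of its group. The means were 6.54 ± 0.29 and 4.01 ± 0.71 (SD, n = 3), a 5.75-fold lower level in DECB, with a difference of -2.52 (SE 0.42; limma adjusted p = 0.0679, and 0.0238 blocked by slide).

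Cyp4a31 lies next to Cyp4a10 on chromosome 4. Its brightest probe read 8.42, 7.85 and 7.72 on the controls and 4.99, 5.00 and 6.27 on the DECB arrays. The groups did not overlap, and DECB 6 lay closest to the controls as for Cyp4a10. The means were 8.0 ± 0.37 and 5.42 ± 0.74 (SD, n = 3), a difference of -2.58 (SE 0.44; limma adjusted p = 0.0682, and 0.0176 blocked by slide). Its other 2 probes differed by -1.99 (SE 0.36) and -1.05 (SE 0.30), again with no overlap. The probes of this gene thus agreed in direction and ranged more than 2-fold in the size of the log2 difference. Cyp4a10, Cyp4a31 and Cyp4a32 are close copies of one another, and the array files hold no probe sequences, so how far their probes share targets is uncertain.

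Without DECB 6, Cyp4a10, Cyp4a14 and Cyp4a31 passed limma (differences of -2.75, -2.93 and -3.01, adjusted p = 0.047, 0.0307 and 0.0338), in a fit that called 0.236% of genes lower. Without both arrays of slide 1 the same 3 members passed (-2.52, -2.81 and -2.79, adjusted p = 0.0454 for each), with 0.311% of genes called lower. Members also passed, all lower, with normexp background correction (3 of 8, and 0.189% of all genes), with a filter that asked for all 6 arrays above background (2 of 8, and 0.576%) and with array weights (4 of 8, and 5.11%). None passed with quantile normalization, median centring, no filter on dim probes, the mean of all kept probes or controls 2 and 3 averaged. Without control 1, control 2, control 3, DECB 4 or DECB 5 none passed either. Within slide 1 the difference of DECB 6 from control 1 was -1.61 for Cyp4a10, -1.95 for Cyp4a14 and -2.15 for Cyp4a31. Within slide 2 the difference of DECB 4 from the mean of controls 2 and 3 was -2.62, -2.77 and -2.80. The direction was therefore the same on both slides that held both groups.

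**Figure D2:**
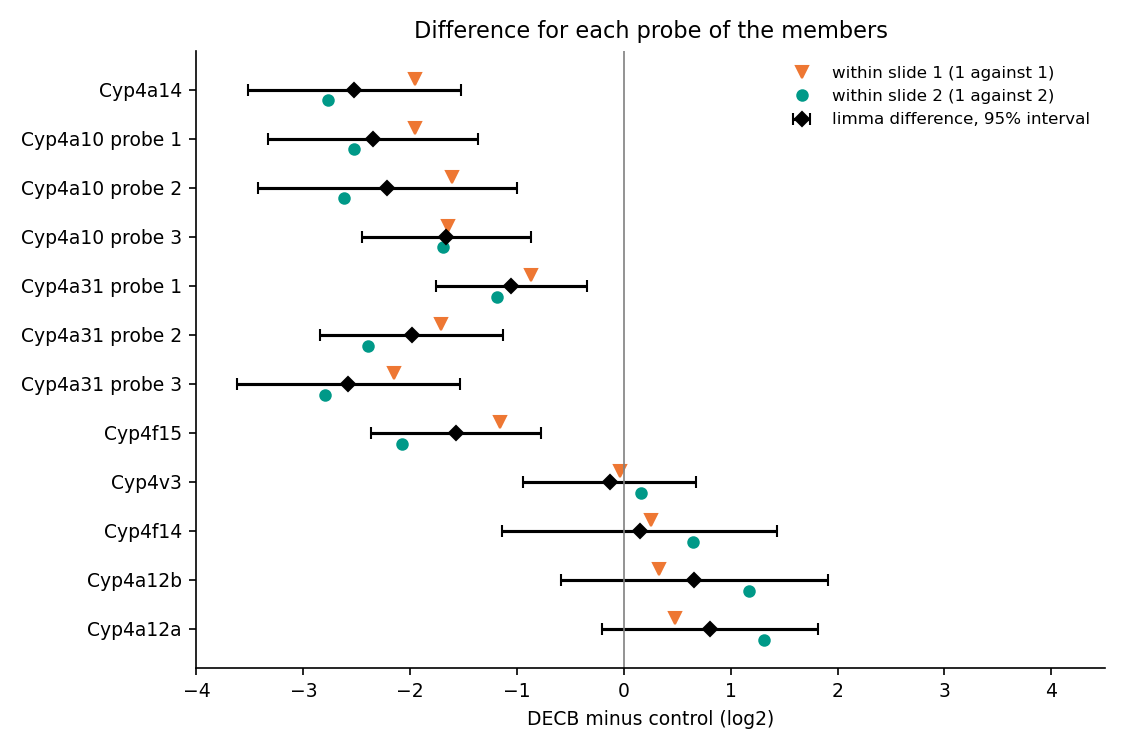
DECB minus control (log2, horizontal axis) for each of the 12 member probes: diamonds are limma estimates with 95% intervals over 6 arrays, triangles the difference within slide 1 and circles that within slide 2. The 8 probes of Cyp4a10, Cyp4a14, Cyp4a31 and Cyp4f15 lie below 0 with intervals that do not reach it, from -1.05 to -2.58, and the intervals of the other 4 probes cover 0.

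Cyp4f15, a hydroxylase of leukotriene B4 and related lipids, was the Cyp4f member that stood lower. It read 4.09, 4.05 and 3.94 on the controls and 1.91, 2.53 and 2.92 on the DECB arrays. The control arrays were nearly equal, and the spread was larger among the DECB arrays. The means were 4.02 ± 0.08 and 2.46 ± 0.51 (SD, n = 3), a 2.97-fold lower level, with a difference of -1.57 (SE 0.33; limma adjusted p = 0.12, and 0.0367 blocked by slide). It differed by -1.16 within slide 1 and by -2.08 within slide 2.

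Cyp4f14, known for omega-hydroxylation of leukotriene B4 and of vitamin E, read 2.63, 3.05 and 4.20 on the controls and 4.27, 3.17 and 2.88 on the DECB arrays. The highest and lowest values of the groups nearly coincided. The difference was 0.15 (SE 0.53, 95% interval -1.11 to 1.40; limma adjusted p = 1), so a change of 2-fold in either direction lay within the interval. Cyp4v3 read 3.53, 3.03 and 3.78 on the controls and 3.57, 2.88 and 3.50 on the DECB arrays. Its difference was -0.13 (SE 0.34, 95% interval -0.93 to 0.67, limma adjusted p = 1). That interval does not reach the fitted differences of the 4 lower members, but it overlaps the interval of Cyp4f15 (-2.35 to -0.78).

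Cyp4a12a makes the omega-hydroxylated form of arachidonic acid in mouse kidney and is high in males. It read 5.58, 4.94 and 4.28 on the controls and 5.92, 5.23 and 6.06 on the DECB arrays. The groups overlapped through control 1 and DECB 5, which are on different slides. The means were 4.93 ± 0.65 and 5.74 ± 0.45 (SD, n = 3), a difference of 0.80 (SE 0.42, 95% interval -0.19 to 1.80; limma adjusted p = 0.625). Cyp4a12b, its near copy, read 5.85, 4.82 and 4.14 on the controls and 5.65, 4.95 and 6.18 on the DECB arrays. Its difference was 0.66 (SE 0.52, 95% interval -0.57 to 1.89, limma adjusted p = 0.829). Within slide 1 Cyp4a12a and Cyp4a12b differed by 0.48 and 0.33, and within slide 2 by 1.31 and 1.17. With slide as a block the differences were 0.95 and 0.81 (limma adjusted p = 0.132 and 0.175). On each array the values of the pair lay within 0.28 of one another, and whether both probes read both copies is not known.

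Members were also compared with each other by the difference in their responses, which needs no comparison of levels between probes. Over 28 pairs, the largest gap was that between Cyp4a31 and Cyp4a12a, -3.38 on the log2 scale, and the smallest that between Cyp4a14 and Cyp4a31, 0.06. The 16 pairs of a lower member with one of the other 4 differed by 1.44 to 3.38. The 6 pairs among the lower members differed by 0.06 to 1.01. The lower members were picked by these same values, so wider gaps across that split are built in. An exact permutation test of 3 against 3 arrays, two-sided, cannot go below p = 0.1, the value that the Cyp4a31 and Cyp4a12a pair had (adjusted p = 0.156 over the 28 pairs), so no pair could pass.

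The other Cyp4 genes on the array were 12, of which 10 were tested; Cyp4a29 and Cyp4x1 were not well above background on any array. Cyp4a32, which lies between Cyp4a31 and Cyp4b1, was the 1 Cyp4 gene that passed limma over all genes. It read 5.77, 5.66 and 5.81 on the controls and 3.16, 3.57 and 3.95 on the DECB arrays. The controls were nearly equal and lay above every DECB array. The difference was -2.19 (SE 0.30; limma adjusted p = 0.044), 4.55-fold. This call was lost without control 1, control 2, control 3, DECB 4 or DECB 5 (adjusted p = 0.11, 0.267, 0.254, 0.155 and 0.177). It was also lost with quantile normalization, with no filter on dim probes and with controls 2 and 3 averaged (limma adjusted p = 0.0564, 0.159 and 0.265). Its difference stayed between -1.99 and -2.38 when any 1 array was left out.

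Cyp4b1, best known from lung, read 0.79, 0.17 and 0.26 on the controls and -0.75, -1.55 and -1.09 on the DECB arrays. These groups did not overlap either, with a difference of -1.54 (SE 0.34; limma adjusted p = 0.133). Cyp4f13, Cyp4f16, Cyp4f17 and Cyp4f18 were well above background on every array and differed by 0.03, -0.42, 0.00 and 0.05. Cyp4f18 is the leukotriene hydroxylase of neutrophils. Cyp4a30b, Cyp4f37, Cyp4f39 and Cyp4f40 were well above background on the 4 arrays of slides 2 and 3 and on neither array of slide 1. Their differences ran from -0.02 to 0.72, with limma adjusted p of 0.703 or above.

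The order of the genes on the chromosomes was looked at after the values were seen. Along chromosome 4 the tested genes run Cyp4a12a, Cyp4a12b, Cyp4a30b, Cyp4a14, Cyp4a10, Cyp4a31, the pseudogene Cyp4b1-ps2, Cyp4a32 and Cyp4b1. The first 3 differed by 0.80, 0.66 and 0.72, and the 5 protein-coding genes that follow by -1.54 to -2.58. The gene after Cyp4b1, Efcab14, differed by 0.08 (SE 0.25), and the one before Cyp4a12a, Pdzk1ip1, by -1.73 (SE 0.36; limma adjusted p = 0.115). In the Cyp4f cluster on chromosome 17, Cyp4f15 differed by -1.57 between Cyp4f40 at 0.53 (SE 0.61) and the zinc finger gene Zfp871 at -0.56 (SE 0.36). The next Cyp4 gene there was Cyp4f14. Both clusters thus held lower and overlapping members.

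**Figure D3:**
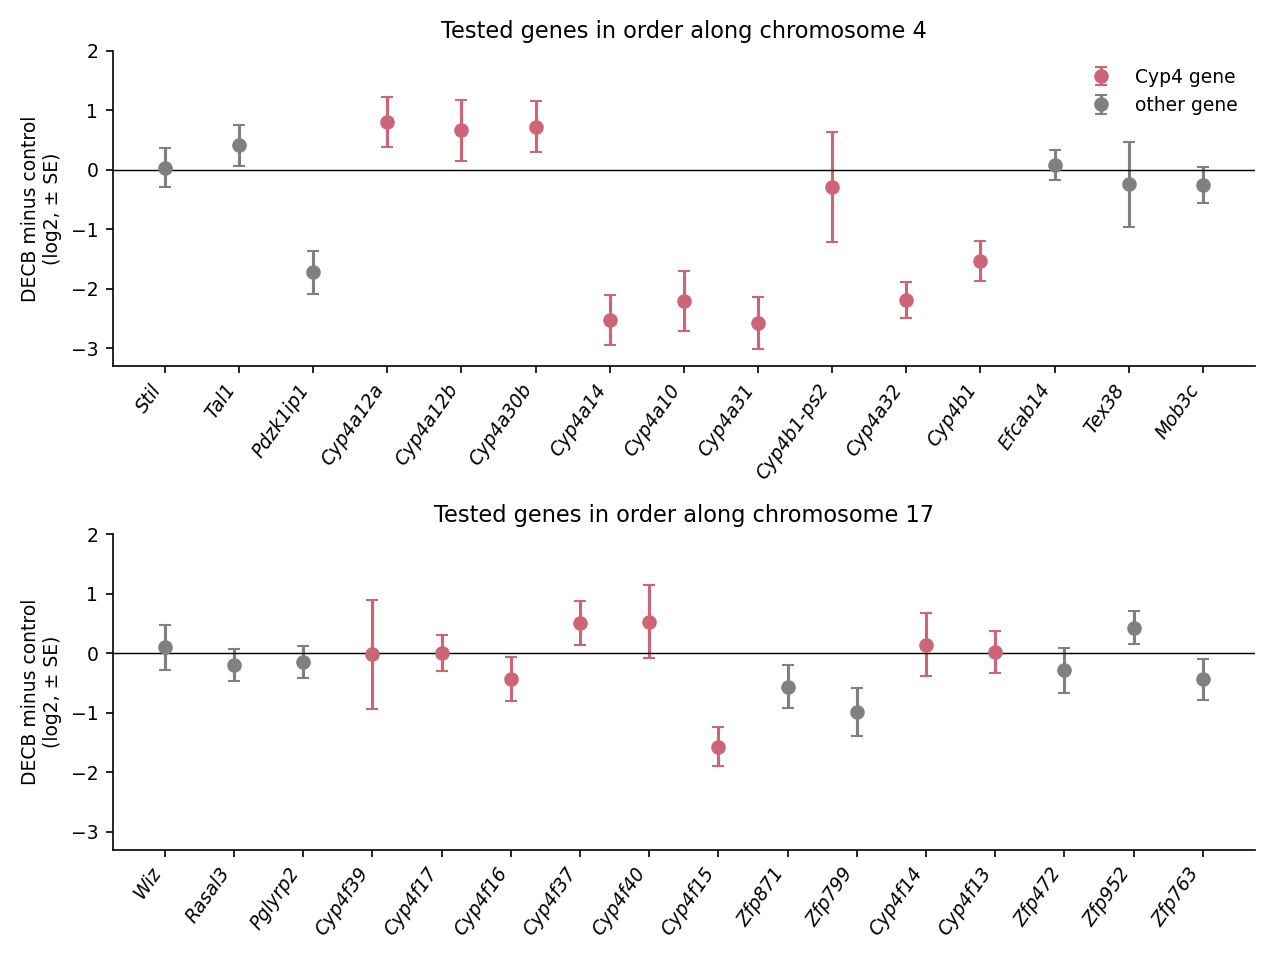
DECB minus control (log2, with SE) for the tested genes in their order along chromosome 4 (upper) and chromosome 17 (lower), Cyp4 genes in red and other genes in grey; distances are not drawn. On chromosome 4 the protein-coding genes from Cyp4a14 to Cyp4b1 lie between -1.54 and -2.58 and their neighbours Cyp4a30b and Efcab14 at 0.72 and 0.08; on chromosome 17 Cyp4f15 is the Cyp4 gene that lies below -0.5.

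Genes with the most similar pattern were found by the root mean square difference between 6 centred log2 values, over 9337 genes well above background on every array. This is a description of the same arrays, and much of it is the difference between groups itself. Cyp4a31 was the second nearest gene to Cyp4a14 (0.18) after Upp2, a uridine phosphorylase (0.17), with the mitochondrial carrier Slc25a47 next (0.22), which itself fell (difference -2.63, limma adjusted p = 0.0386). For Cyp4a31 the nearest were Cyp4a14, the mitochondrial sodium-calcium exchanger Slc8b1 (0.18) and Fbxo21 (0.20). Nearest to Cyp4a10 were Tmem131l, the peroxisomal thioesterase Acot4 and the ubiquitin ligase Rnf125 (0.21, 0.22 and 0.22), followed by Cyp4a31. Cyp4f15 lay nearest to Paqr7, the sulfotransferase Sult1d1 and Ppargc1a, a coactivator of fasting genes (0.13, 0.16 and 0.16).

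The members whose groups overlapped had other nearest genes. Cyp4a12b lay nearest to Actb, beta-actin (0.10), followed by Mgat5b and Tmed2, and Cyp4a12a nearest to Nubp2, Rhbdf2 and Nrg4 (0.13, 0.13 and 0.14). Cyp4f14 had no gene closer than Cldn1, a tight junction protein (0.23), with Gimap6 and Ndrg1 after it. Cyp4v3 lay nearest to Igbp1, Fcgr3 and Hspa9 (0.13, 0.13 and 0.14).

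Microsomal P450 enzymes draw electrons from Por, the P450 reductase, helped by cytochrome b5. Por read 7.28, 7.71 and 7.44 on the controls and 5.37, 5.99 and 5.71 on the DECB arrays. The groups stood clearly apart, with a difference of -1.78 (SE 0.30; limma adjusted p = 0.0679, and 0.0253 blocked by slide). Of 5 genes listed as electron donors or partners of P450 enzymes, 0 passed limma. Only 1, Por, had an unadjusted p under 0.05 and passed, lower, with slide as a block, against 5.79% and 3.94% of all genes. The median was -0.43 (-0.26 without DECB 4 and -0.68 without DECB 6). Cyb5r3, Cyb5a and Pgrmc1 differed by -0.54, -0.43 and -0.21 and Cyb5b by 0.41, with limma adjusted p of 0.64 or above.

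PPAR-alpha itself is encoded by Ppara, which read 5.47, 4.96 and 5.25 on the controls and 3.44, 3.56 and 3.70 on the DECB arrays. All control values lay more than 1 log2 unit above all DECB values, with a difference of -1.66 (SE 0.28; limma adjusted p = 0.0679, and 0.0215 blocked by slide). Its partner Rxra differed by 0.03 (SE 0.27, 95% interval -0.59 to 0.66). Lpin1, Ppargc1b and Ppargc1a, which coactivate the receptor, differed by -1.20, -2.37 and -1.43 (limma adjusted p = 0.159, 0.175 and 0.203), and Ppargc1b was well above background on 1 of 3 DECB arrays. Of 13 genes of the receptor and its partners 0 passed limma. An unadjusted p under 0.05 was found for 4, all lower, against 5.79% of all genes. With slide as a block 4 passed, lower, against 3.94% of all genes. The median of the list was -0.40. Leaving out control 1 gave a median of -0.24, leaving out DECB 4 one of -0.22 and leaving out DECB 6 one of -0.70.

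Among 30 other PPAR-alpha targets, 29 were tested, 28 lay below 0 and the median was -1.19, against -0.03 over all genes. This list, like the others, was chosen with earlier results of these data known. Pdk4, a kinase that shuts down pyruvate dehydrogenase, and Fgf21, a fasting hormone, fell (limma adjusted p = 0.0252 for each). That fit called 0.257% of all genes lower. With slide as a block 17 passed, lower, against 3.94% of all genes. Pdk4 differed by -3.77 (SE 0.34). Fgf21 was well above background on every control array and on no DECB array, so it passed the filter through the controls alone. Cidec, a lipid droplet protein, and Ehhadh, the peroxisomal bifunctional enzyme, differed by -1.92 and -2.25 (limma adjusted p = 0.058 and 0.0675). Without DECB 6 the median was -1.53.

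The steps that follow omega-hydroxylation were followed in 19 genes, 5 of which are also in the list of PPAR-alpha targets. None passed limma, and 8 had an unadjusted p under 0.05, all lower, against 5.79% of all genes. Of the 19, 15 lay below 0, 11 of them without overlap between groups, a separation that 9.4% of all genes showed. The median was -0.63, against -0.03 over all genes, and 7 passed, lower, when blocked by slide, against 3.94% of all genes. Crot, which exports shortened acyl chains from peroxisomes, differed by -1.74 (SE 0.31; limma adjusted p = 0.0775). Acsl1, an acyl-CoA synthetase, and Acot4, a peroxisomal thioesterase for dicarboxylic acids, differed by -1.32 and -2.03 (limma adjusted p = 0.137 for each). Aldh3a2, the fatty aldehyde dehydrogenase that completes the oxidation of the omega end, read 1.20, 0.76 and 0.75 on the controls and 0.08, 0.70 and 0.37 on the DECB arrays, a difference of -0.52 (SE 0.30; limma adjusted p = 0.691). Its groups did not overlap, but DECB 5 lay close to controls 2 and 3.

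**Figure D4:**
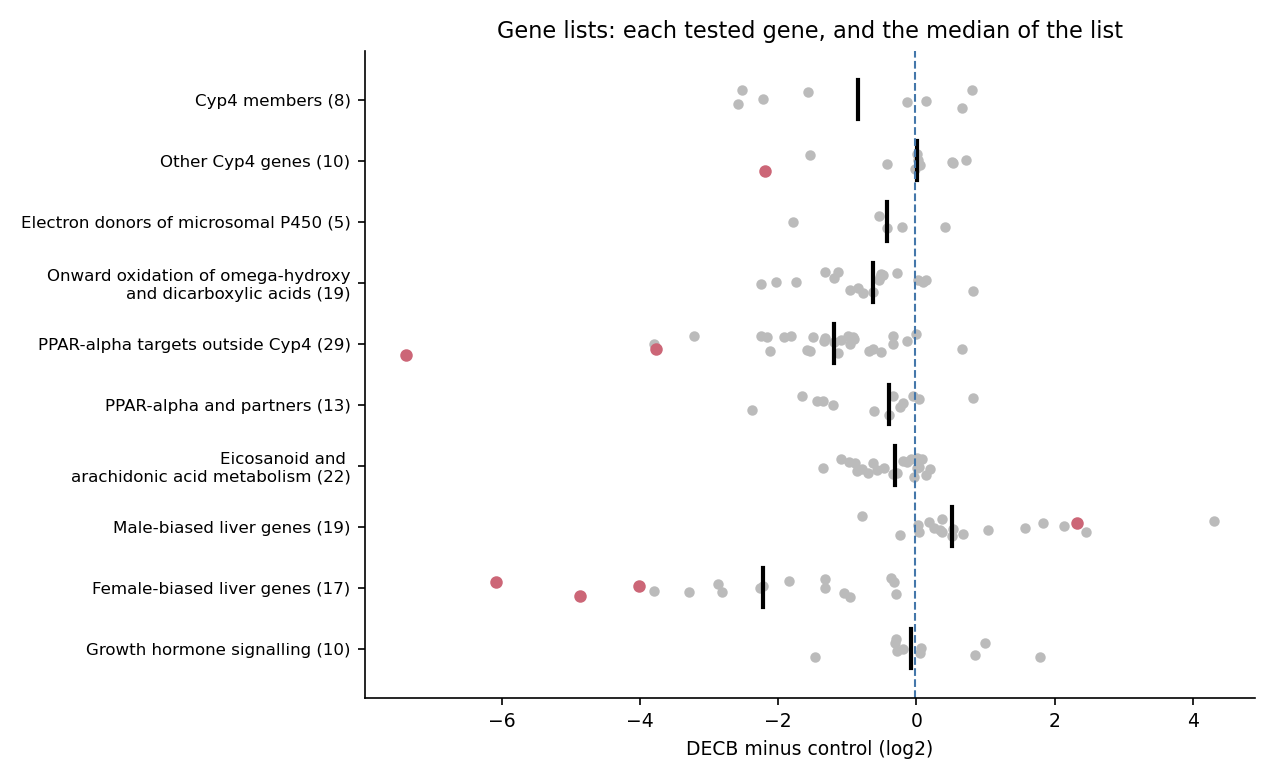
DECB minus control (log2, horizontal axis) for each tested gene of the Cyp4 members and of 9 related lists, with the number of genes tested in parentheses; red points passed limma at an adjusted p under 0.05, black bars are medians, and the dashed line is the median of all genes, -0.03. The lists of PPAR-alpha targets and of female-biased genes have medians of -1.19 and -2.22, and the male-biased list 0.52. No red point lies among the 8 members.

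Because Cyp4a12 genes are known as male-typical, sex-biased liver genes were set beside them. Of 22 male-biased genes 19 were tested, 17 lay above 0 and the median was 0.52, against -0.03 over all genes. At an unadjusted limma p under 0.05 there were 7 higher and 1 lower, against 10% of all genes in either direction. The lower one, Cyp2d9, differed by -0.78 (limma adjusted p = 0.419), without overlap between groups. Nudt7, a peroxisomal hydrolase, rose by 2.33 (SE 0.33; limma adjusted p = 0.0488). Keg1, C6 and Hsd3b5 differed by 1.83, 2.14 and 4.31 (limma adjusted p = 0.083, 0.0911 and 0.149), and Hsd3b5 was well above background on 1 of 3 control arrays. Of 24 female-biased genes 17 were tested and all 17 lay below 0, with a median of -2.22, against -0.03 over all genes. Of these 17, 6 were not well above background on every array. Among those 6, Cux2 and Hao2 passed the filter through the controls alone, so their direction is no separate support.

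Among the female-biased genes Cux2 and Hao2 fell (limma adjusted p = 0.0265 and 0.0352). Both were well above background on every control array and on no DECB array, so they passed the filter through the controls alone. Slc22a26 differed by -2.87 (limma adjusted p = 0.114). None of 10 growth hormone signalling genes passed limma. At an unadjusted p under 0.05 there were 2 higher and 1 lower, against 10% of all genes in either direction. Cish, Igfals, Socs2 and Bcl6 differed by 1.79, 0.99, -1.46 and 0.84, and Stat5b by -0.27 (SE 0.33).

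In whole liver, fewer cells of a type and less RNA per cell cannot be told apart. Of 8 hepatocyte markers 0 passed limma, none with an unadjusted p under 0.05, and their median was -0.17; their summed signal ran from 11.24 to 11.48 (log2) on the controls and from 11.07 to 11.38 on the DECB arrays. The median was -0.45 over 9 pericentral and -0.39 over 9 periportal hepatocyte markers, and 0 of either list passed. At an unadjusted p under 0.05 there were 1 and 2 lower, against 5.79% of all genes. Neutrophil markers, 3 of 7 tested, summed to -0.38 to 0.00 on the controls and 1.01 to 1.48 on the DECB arrays; S100a8 and S100a9 differed by 1.57 each (limma adjusted p = 0.101 and 0.167), and 2 of the 3 passed, higher, with slide as a block. Ly6g, Ngp, Mmp8 and Retnlg, further markers of these cells, were not among the genes tested. Of the 7 markers 6 had a probe, so most of those untested were left out by the filter on dim probes. The part of these cells in the Cyp4 values was not tested. Medians were -0.20 over 9 Kupffer cell, -0.30 over 7 endothelial, -0.43 over 6 stellate and 0.72 over 4 cholangiocyte markers. They were -0.24 over 4 kidney tubule and -0.67 over 2 adipocyte markers, and no gene of any of these lists passed. The adipocyte markers, 2 of 6 tested, went opposite ways, Plin4 by -1.74 and Retn by 0.40. At an unadjusted p under 0.05 there were 1 stellate and 1 adipocyte marker lower and 2 cholangiocyte markers higher. Over all genes 10% had such a p in either direction. With slide as a block, 1 periportal, 1 endothelial and 1 adipocyte marker passed, each lower, in a fit that called 3.94% of all genes lower.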

How the data were processed

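Arrays of 1 colour, 3 control and 3 DECB, were analysed from scanner files extracted with Agilent Feature Extraction 11.0.1.1, per the file headers and the submitters' processing notes. The deposited intensity used, the processed Cy3 signal, came, per the file headers, after background subtraction and spatial detrending, and arrays were not normalized to each other. The deposited raw median intensity of spots and local background entered the normexp alternative. The deposited value table is on a log2 scale with a median of 5.34 in each column; its method was not given in the sources used here. Over 14182 probes its columns correlated with their own arrays at 0.52 to 0.58, and between -0.06 and 0.05 once each probe was centred, so it was used in no comparison, and its scale, centring and direction stay unknown.

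From each log2 processed signal the 75th percentile of its array, taken over 43020 non-control spots, was subtracted. Spots of a probe were averaged without control spots and marked outliers (164 to 322 on an array); none was saturated. A probe was kept if 3 or more of 6 arrays had it well above background (25416 of 39429), and the brightest probe stood for a gene. Symbols came from RefSeq accessions of GRCm38.p6 (27234 of 28684 probes matched); the array design names mm9, so no coordinates are given for its probes or genes beyond the RefSeq promoter windows. limma 3.58.1 in R 4.3.3 was fitted over all 14803 genes, two-sided, with Benjamini-Hochberg adjustment, and the script was tested on simulated data. The number of arrays limits the precision. Groups came from sample titles. Alternatives were another background correction, normalization, filter, probe rule, slide as a block, array weights and arrays left out. Named genes were all Cyp4 genes, the called genes and 4 smallest p-values of each list, the 3 nearest patterns per member and 6 fixed genes; not all are printed, and 1 is not reported here. Members and lists were chosen with earlier results of these data known.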

Additional observations from a re-analysis of the deposited data

How the results depend on the processing

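No paired analysis was possible because the groups share no replicate number (control 1 to 3, DECB 4 to 6), and no replicate block could be fitted. The alternative with the deposited value table was not run, since its columns did not follow their own arrays. Over 16 alternatives the differences kept their direction for Cyp4a10 (-2.75 to -1.89), Cyp4a14 (-2.93 to -2.30), Cyp4a31 (-3.01 to -1.87), Cyp4f15 (-1.80 to -1.30), Cyp4a12a (0.48 to 1.13) and Cyp4a12b (0.26 to 1.12). Adjusted p ran from 0.002 to 0.469 for Cyp4a10, 0.00174 to 0.311 for Cyp4a14, 0.00102 to 0.308 for Cyp4a31 and 0.00447 to 0.521 for Cyp4f15.

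Some alternatives took members past the limma threshold. These were normexp (Cyp4a10 -2.41, Cyp4a14 -2.39, Cyp4a31 -2.59), the filter on all 6 arrays (Cyp4a14 -2.52, Cyp4a31 -2.58), slide as a block (-2.18, -2.42, -2.52 and, for Cyp4f15, -1.69), no slide 1 (-2.52, -2.81, -2.79) and array weights (-2.41, -2.65, -2.75 and, for Cyp4f15, -1.68). With 1 array left out the ranges were -2.75 to -1.89 for Cyp4a10, -2.93 to -2.30 for Cyp4a14 and -3.01 to -2.37 for Cyp4a31, past the threshold without DECB 6. The sign turned for Cyp4v3 with slide as a block (0.077) and without control 3 or DECB 5 (0.03 and 0.084, range -0.34 to 0.08), and for Cyp4f14 without control 1 or DECB 4 (-0.18 and -0.27, range -0.27 to 0.60).

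The 69 calls over all genes became 37 with quantile normalization, 0 with no filter (1257 at an unadjusted p under 0.05), 988 with slide as a block, 2 with controls 2 and 3 averaged and 1222 with array weights. With 1 array left out limma gave 0 to 53: 0 without control 1, control 3, DECB 4 or DECB 5 (1343, 917, 1220 and 1159 unadjusted), 2 without control 2 and 53 without DECB 6. The median of all genes was -0.03, and -0.16 with median centring. The female-biased median became -1.40 with normexp and ran from -2.37 to -1.54 with 1 array left out. The eicosanoid median, -0.31, became -0.44 with median centring, -0.60 with the filter on all 6 arrays, -0.48 without slide 1 and -0.53 with array weights, and ran from -0.40 to -0.19 with 1 array left out. Those ranges were -0.85 to -0.58 for the onward oxidation list and -1.53 to -1.04 for the PPAR-alpha targets. The causes of these shifts were not tested. Slide 1 was the dim one, so its lowest signal well above background was -1.95 and -2.26 (log2), against -5.03 to -4.07 on the other arrays.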

Other observations

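Cyp2c and Cyp2j enzymes, which epoxidize arachidonic acid where Cyp4 enzymes hydroxylate its end, were read on the same arrays. Of 27 eicosanoid genes 22 were tested and 0 passed limma. An unadjusted p under 0.05 was found for 4, all lower, against 5.79% of all genes. Below 0 lay 16, and 5 of those did not overlap between groups, against 9.4% of all genes. With slide as a block 4 passed, lower, against 3.94% of all genes. Those were Cyp2j9, Cyp2c37, Cyp2c39 and Ephx2. The median of the list was -0.31 (-0.19 without control 2). Cyp2j9 differed by -1.35 (SE 0.35), Cyp2c37 by -1.08 (SE 0.37), Cyp2c54 by -0.97 (SE 0.32) and Cyp2j6 by -0.85 (SE 0.29), with limma adjusted p of 0.201, 0.372, 0.353 and 0.36. Ephx2, the soluble hydrolase that opens the epoxides, differed by -0.89 (SE 0.48; limma adjusted p = 0.642). The median within slide 1 was -0.12 and within slide 2 -0.63.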
